A study of Gallus gallus with 15 samples.

Results

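The ABC transporters are membrane pumps that use ATP to move lipids, bile constituents, drugs, peptides and metal-bound cofactors across membranes. Members were taken by gene symbol, as every row of the count table whose name begins with ABC, a subfamily letter from A to G and a digit, and 40 of 24154 gene rows met this rule. Subfamily A held 10 of them, B 9, C 10, D 3, E 1, F 2 and G 5. The rule itself uses the symbol and no measured value.

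Liver RNA was sequenced from hens aged 65 weeks of a broiler breeder flock, the birds that lay the eggs from which meat chickens hatch. Each diet was given to 45 hens. The control group had no metformin in the diet and gave 5 libraries. The treated group received 75 mg of metformin per kg of body weight for 40 weeks, starting at 25 weeks of age, and gave 10 libraries. Metformin is a glucose-lowering drug of human medicine. Separate hens per library are not stated by the labels, and p-values therefore cover the spread between libraries, which may be technical.

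In hepatocytes, ABC pumps of the canalicular membrane fill the bile. ABCB11 exports bile salts, ABCC2 exports conjugated organic anions, ABCG5 and ABCG8 work as a dimer that exports sterols, and ABCB1 and ABCG2 export drugs and other foreign compounds. Members of subfamily A mostly move lipids, subfamily D works in peroxisomes and lysosomes, several B members sit in mitochondria, and subfamilies E and F have no membrane-spanning part and act in translation. These roles are known mainly from human and mouse.

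Controls had 21435678 to 26494240 reads in genes, and the treated libraries 8023809 to 41041301. The latter were of 3 kinds by the share of reads that fell in no gene. This share was 27.8% to 36.3% in controls and 37% to 43.5% in metformin 1, 3 and 4, which together with the controls are called the middle set. It was 14.6% to 17.5% in metformin 2 and 5, the low set, and 51.5% to 55.1% in metformin 6 to 10, the high set. All controls are of the middle set, so in the low and high sets differences by metformin and by set are mixed. Main fold changes over the 15 libraries are therefore given beside a set-adjusted value, from a model that also holds a term for the set. In that model treatment is read from metformin 1, 3 and 4 and the 5 controls. In each of these 3 treated libraries the share of reads in no gene was above that of every control. Set-adjusted values and those of the middle set alone therefore do not separate metformin from this share, whose part in them was not tested. The tissue label was checked with 12 hepatocyte markers, all of them detected, whose summed level was 93600 to 121000 CPM in controls, 58300 to 94700 in the metformin libraries of the middle set, 173000 to 205000 in the low set and 119000 to 201000 in the high set. CPM is the read count scaled to a common library size with TMM factors, in the usual unit of that name. In whole tissue, fewer cells of a type and less RNA per cell cannot be told apart.

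Metformin was compared with control to ask which of these pumps differed in the liver of treated hens. Transcripts of 3 members, ABCA1, ABCD3 and ABCE1, were higher with metformin over all 15 libraries, and those of ABCA8 and ABCA12 were lower. The count rests on the 37 members that passed the expression filter, and it was tested with edgeR's quasi-likelihood test at an adjusted p under 0.05. The share called higher was 8.11% of members against 12.5% of all genes tested, and the share called lower was 5.41% against 5.73%. Both shares lay at or under those of the whole table, so the counts are no result about the family. The median log2 fold change of the 37 members was -0.11, beside 0.03 over all genes, and 17 members had a positive and 20 a negative value. At an unadjusted p under 0.05 stood 12 of 37 members, beside 39.2% of all genes. Set-adjusted, edgeR called 0 members in either direction, beside 0.0277% of all genes higher and 0.00693% lower, and 7 members had an unadjusted p under 0.05, beside 11.6% of genes. In the 8 libraries of the middle set alone it also called 0 of 36 members, beside 0% of genes higher and 0.00734% lower, with 4 members at an unadjusted p under 0.05, beside 10.2% of genes. Each of the 5 calls was lost without control 2 and without control 5, so the calls also depend on single controls. The same held for the whole table. Genes called fell from 1805 higher and 827 lower to 2 and 4 without control 2, and to 0 and 0 without control 5.

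**Figure D1:**
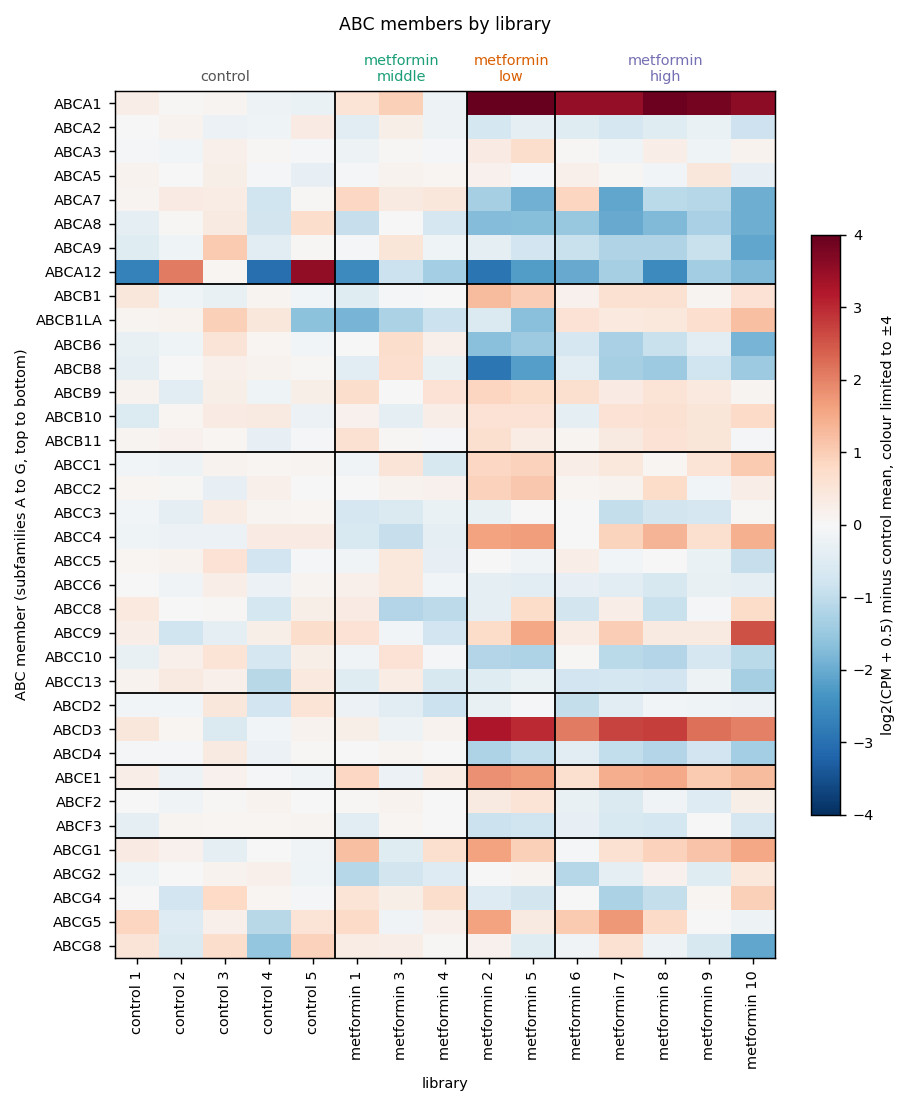
Each row is 1 of 36 of the 37 tested members and each column 1 library, with colour giving log2(CPM + 0.5) minus the mean of the 5 controls, limited to 4 on either side. ABCA1 and ABCD3 are red in all 7 libraries of the low and high sets and pale in metformin 1, 3 and 4, while ABCA12 differs widely among the controls themselves.

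Calls fell in subfamilies A, D and E, and no difference between subfamilies was tested. In subfamily A, 1 of 8 tested members was called higher and 2 lower, in D 1 of 3 was higher, and the single E member was higher. No member of B, C, F or G was called by edgeR in the main fit of all 15 libraries. Its unadjusted p was under 0.05 in 2 of 8, 1 of 10, 1 of 2 and 1 of 5 members, beside 39.2% of all genes. DESeq2 called 6 members higher, ABCB9 and ABCG1 among them, and no further member lower. In the whole table it called 3125 genes higher and 1151 lower. It was given all 24154 gene rows and 40 members without the expression filter, and how many it tested is not given here. No share can therefore be set beside its counts, and they are no result about the family. Without metformin 3, edgeR called members of B, C, F and G, among them ABCB9 and ABCG1 higher and ABCB8, ABCC13 and ABCF3 lower. In the whole table that run called 3011 genes higher and 2293 lower. Over all libraries the median log2 fold change was -0.38 in A, 0.33 in B, -0.13 in C, -0.44 in D, 1.17 in E, -0.19 in F and -0.02 in G. Set-adjusted, the medians in the same order were -0.04, 0.03, -0.08, 0.01, 0.35, -0.03 and 0.15, beside -0.03 over all genes. These medians describe few genes each and were not tested. In the RefSeq gene table of another assembly, GRCg7b, 10 members overlap other protein-coding genes, namely ABCB6, ABCB8, ABCB11, ABCC4, ABCC6, ABCC10, ABCD3, ABCD4, ABCG4 and ABCG5. Reads ambiguous between genes were kept apart from gene counts, at 0.411% (metformin 8) to 0.87% (control 4) of a library. No source used here gives the strand setting of the counting. These members may therefore hold reads of the overlapping gene or lack some of their own, by an amount that was not measured. The ambiguous share is over whole libraries and sets no limit for a single gene. ABCA8, ABCC5, ABCC8 and ABCG2 overlap only a lncRNA there, and the same holds for them.

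In subfamilies A and D, how the summed levels stood against controls changed when a single member was left out. The 10 A members together had 438 to 1060 CPM in controls and 403 to 661 in the metformin libraries of the middle set, but 346 to 378 in the low set and 275 to 374 in the high set, below every control. Without ABCA8 the A sums were 189 to 381 CPM in controls, 222 to 251 in the low set and 168 to 207 in the high set, and these ranges overlap. The 3 D members together had 117 to 174 CPM in controls and 131 to 147 in metformin 1, 3 and 4, against 325 to 360 in the low and 190 to 283 in the high set. Without ABCD3 the direction turned, with 88.9 to 154 CPM in controls, 65.7 to 77.7 in the low set and 64.4 to 81.2 in the high set. The single E member had 18.2 to 25.3 CPM in controls and 18 to 37.6 in metformin 1, 3 and 4. It had 70.4 to 76.7 in the low set and 33.6 to 61.6 in the high set. In the same order the F members together had 89.6 to 117, 88.1 to 116, 75.3 to 81.6 and 71.6 to 104 CPM. The G members had 65.2 to 97.7, 62.1 to 68.6, 79.6 to 108 and 59.4 to 108 CPM. Sums of subfamily B were 344 to 400 CPM in controls and 338 to 456 in metformin libraries, and those of C were 354 to 550 and 349 to 569, so these overlapped throughout. The sum of all members was 1460 to 2280 CPM in controls and 1380 to 1980 with metformin.

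ABCA1 loads cholesterol and phospholipid onto apolipoprotein A-I to form nascent HDL. Its level was 2.06, 1.69, 1.79, 1.35 and 1.27 CPM in control 1 to 5. The levels in metformin 1, 3 and 4 were 2.60, 3.55 and 1.35 CPM, metformin 2 and 5 had 41.0 and 43.1, and metformin 6 to 10 had 23.8, 23.8, 31.6, 29.5 and 24.8. All 7 libraries of the low and high sets were above every control, while metformin 4 lay within the control range. ABCA1 had a log2 fold change of 3.78 ± 0.76 (± SE here and below, adjusted p = 0.0196) in the 15 libraries together, against 0.59 ± 0.26 (adjusted p = 0.403) set-adjusted. The call was lost without control 2, 4 or 5, with adjusted p = 0.0549 to 0.0632. The 9 macrophage markers, whose cells also express ABCA1, summed to 403 to 1070 CPM for controls, 334 to 479 for metformin 1, 3 and 4, 608 to 611 in the low set and 363 to 682 in the high set, with all 9 detected, 0 higher and 2 lower. The hepatocyte sum, given above, was also higher in the low set. In the high set it was 119000 to 201000 CPM, beside 93600 to 121000 in controls. Only metformin 10, at 119000, lay within the control range, and the rest of the high set was above every control. Of the 12 hepatocyte markers 0 were called higher and 1 lower over all libraries, beside 12.5% and 5.73% of all genes. These calls pool the treated libraries of all sets, so they do not show how single markers stood in the low or high set. The part of either marker list in the values of ABCA1 and of the other members that differ by set was not tested.

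ABCA12 is a lipid transporter known from human epidermis, where it delivers lipids to the skin barrier. Control 1 to 5 had 1.51, 54.9, 13.3, 1.14 and 154 CPM, a standard deviation of 144% of the mean and the widest spread among the tested members. In metformin 1, 3 and 4 it was 1.73, 6.76 and 4.57 CPM, in metformin 2 and 5 it was 1.24 and 2.28, and in metformin 6 to 10 it was 2.72, 4.73, 1.77, 4.56 and 3.39. No metformin library reached controls 2, 3 or 5, yet controls 1 and 4 lay within or below the metformin range, so the groups overlap. Metformin against control gave a difference of -3.75 ± 0.78 on the log2 scale (adjusted p = 0.0208), against a set-adjusted -3.37 ± 1.19 (adjusted p = 0.273). Without control 5, the library with 3280 ABCA12 reads, the value was -2.40 (adjusted p = 0.0736), and the call was also lost without control 2 (-3.67, adjusted p = 0.0608).

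ABCA8 belongs to a cluster of A members and is linked in mammals to cholesterol efflux. Control levels were 315, 429, 532, 250 and 675 CPM. Of the treated libraries, metformin 1, 3 and 4 had 220, 407 and 258 CPM, metformin 2 and 5 had 123 and 127, and metformin 6 to 10 had 143, 103, 122, 167 and 107. The treated libraries other than metformin 3 and 4 were below every control. On the log2 scale the difference was -1.31 ± 0.32 (adjusted p = 0.0259) in the 15 libraries together, against -0.58 ± 0.30 (adjusted p = 0.481) set-adjusted. It lost the call without control 2, 3, 4 or 5, with adjusted p = 0.0541 to 0.0758. ABCA9 and ABCA5 follow ABCA8 as direct neighbours in that RefSeq table. ABCA9 had 38.8 CPM in controls (SD 20, n = 5) and 24.1 ± 12.2 with metformin (SD, n = 10), and the log2 fold changes were -0.68 (adjusted p = 0.156) and, set-adjusted, -0.01. ABCA5, a lysosomal member, had 16.8 ± 2.50 and 17.5 ± 2.64 CPM, a log2 fold change of 0.05 ± 0.15. In the high set against the middle set ABCA9 and ABCA8 were both called lower, at log2 fold changes of -1.33 ± 0.33 (adjusted p = 0.00374) and -1.20 ± 0.29 (adjusted p = 0.00278), while ABCA5 had 0.03 ± 0.19 (adjusted p = 0.915). In the low set ABCA8 was called lower (-1.24 ± 0.38, adjusted p = 0.0152), and ABCA9 was not (-0.67 ± 0.42, adjusted p = 0.213). Of all genes 21.3% were called lower in the high set and 24% in the low set.

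ABCA2, which handles lipids in lysosomes, had 90.7 ± 14.7 CPM in controls and 68.2 ± 15.7 with metformin, with log2 fold changes of -0.41 (adjusted p = 0.0921) and, set-adjusted, -0.12. ABCA3, the phospholipid transporter of lung surfactant, had 61.1 ± 5.95 and 66.0 ± 14.2 CPM, with log2 fold changes of 0.11 and -0.08. ABCA7, a phospholipid transporter, was below all controls in 6 metformin libraries and above them in 4. Its log2 fold change was -0.35 in the 15 libraries together, against 0.55 set-adjusted, and neither passed. ABCA4, the retinal transporter of photoreceptors, had 0 to 10 reads in a control library and at most 23 in a metformin library. ABCA13 had 0 reads in the 5 controls together and 12 in the metformin libraries. These members did not pass the filter and were not tested.

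**Figure D2:**
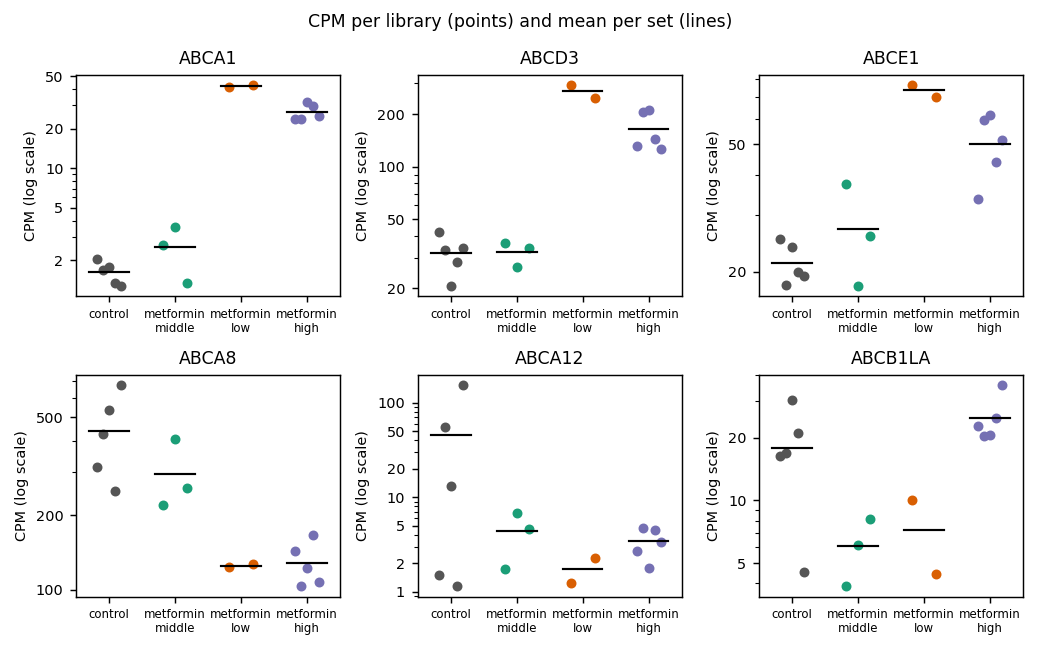
Points are CPM of single libraries on a log axis, grouped as controls and the metformin libraries of the middle, low and high sets, and lines are set means. ABCA1, ABCD3 and ABCE1 are highest in the low set, ABCA8 is lowest in the low and high sets, and ABCB1LA in metformin libraries is above 20 CPM in the high set alone.

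The canalicular exporters of subfamilies B, C and G did not pass the test. ABCB11, the bile salt export pump, had 144, 149, 141, 105 and 127 CPM in control 1 to 5. Metformin 1, 3 and 4 had 202, 137 and 128 CPM, metformin 2 and 5 had 207 and 162, and metformin 6 to 10 ran from 125 to 196. Above all controls were 6 treated libraries and below them none, so the groups overlap. Fold changes on the log2 scale were 0.31 ± 0.17 (adjusted p = 0.172) and, with the set term, 0.22 ± 0.20 (adjusted p = 0.731). The value held its sign in every alternative run, and leaving out single libraries gave 0.23 to 0.40.

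ABCC2 had 87.8, 85.4, 66.5, 96.2 and 84.7 CPM in controls. The levels in metformin 1, 3 and 4 were 83.1, 92.8 and 94.1 CPM, and metformin 6 to 10 had 77.5 to 140, while metformin 2 and 5 stood above all other libraries at 158 and 175. Its fold changes on the log2 scale were 0.39 ± 0.21 (adjusted p = 0.182) and, with the set term, 0.10 ± 0.19 (adjusted p = 0.900). ABCB1, the P-glycoprotein, was likewise highest in the low set. It had 81.6, 53.3, 49.2, 64.8 and 56.0 CPM for controls, 43.0 to 60.7 in metformin 1, 3 and 4, 145 and 118 in metformin 2 and 5, and 64.8 to 92.6 in the high set. Its log2 fold change was 0.45 ± 0.26 (adjusted p = 0.199) in the 15 libraries together, against -0.18 ± 0.20 (adjusted p = 0.794) set-adjusted. No row carries the symbol ABCB4, which the RefSeq table lists as another name of ABCB1.

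ABCB1LA is the neighbour of ABCB1 in the RefSeq table and close to it in name. Reads without a unique alignment were kept apart from gene counts, at 2.29% (metformin 2) to 12% (metformin 1) of a library. Reads shared between such copies could therefore be missing from both. Controls had 16.4, 16.9, 30.3, 21.1 and 4.51 CPM. Of the treated libraries, metformin 1, 3 and 4 had 3.86, 6.08 and 8.17 CPM and metformin 2 and 5 had 10.0 and 4.42, while metformin 6 to 10 had 20.4 to 35.9. The treated libraries of the middle and low sets thus lay below control 1 to 4. Those of the high set were above control 1 and 2, while control 3 and 4 lay within the high-set range. Control 5, at 4.51 CPM, was close to the lowest treated libraries. The fold change on the log2 scale was -0.19 ± 0.51 (adjusted p = 0.802) for the 15 libraries, against -1.55 ± 0.46 (adjusted p = 0.185, unadjusted p = 0.00342) set-adjusted, the smallest unadjusted set-adjusted p of the family.

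ABCG2 had 39.8, 43.7, 49.3, 51.8 and 39.9 CPM in controls. Metformin 1, 3 and 4 had 20.1, 26.4 and 31.2 CPM, all below every control, whereas metformin 2 and 5 had 44.5 and 48.3 and metformin 6 to 10 ran from 19.9 to 60.1. Metformin against control gave -0.29 ± 0.24 on the log2 scale (adjusted p = 0.385), -0.79 ± 0.28 (adjusted p = 0.267) with the set term and -0.77 ± 0.19 (adjusted p = 0.249) in the middle set alone. ABCG2 and ABCC4 were the 2 members in which metformin 1, 3 and 4 all lay below all controls, and ABCA7 was the 1 member above. These are 5.41% and 2.7% of tested members, beside 3.56% and 2.99% of all genes. In no member did all 10 metformin libraries lie on one side of all controls, beside 0.651% of genes above and 1.05% below.

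**Figure D3:**
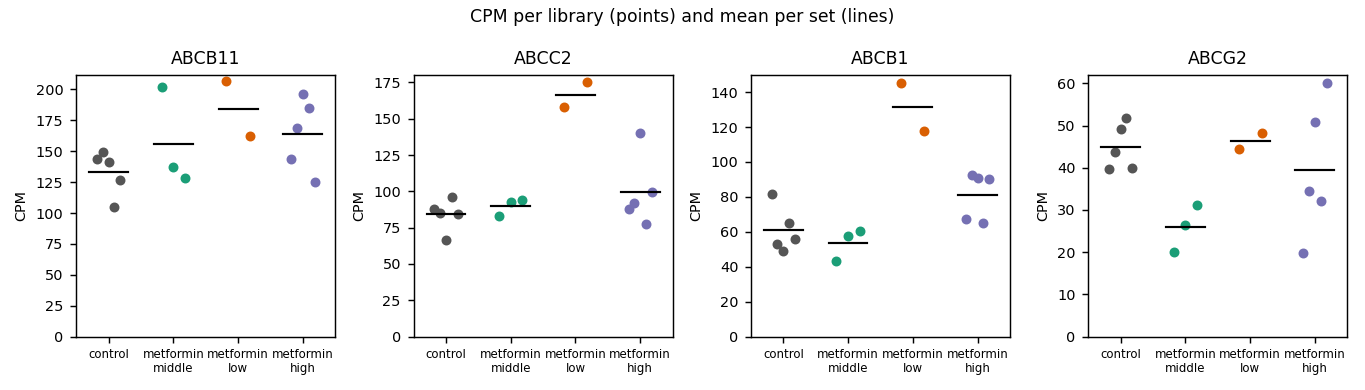
Points are CPM of single libraries on a linear axis from 0, grouped as controls and the metformin libraries of the middle, low and high sets, and lines are set means. ABCC2 and ABCB1 are highest in metformin 2 and 5, and ABCG2 is below all controls in metformin 1, 3 and 4.

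ABCG5 and ABCG8 are direct neighbours in the RefSeq table. ABCG5 had 23.6, 8.71, 14.6, 5.68 and 19.0 CPM in controls, and 11.0 to 43.6 in metformin libraries with a median of 19.1. ABCG8 had 27.5, 12.6, 31.1, 6.14 and 36.2 CPM in controls, and 4.13 to 29.5 with metformin with a median of 18.5. Control 4 was the lowest control for both. Standard deviations were 51.2% and 56.2% of the control mean, more than the 24.6% median of tested members. Neither passed, with log2 fold changes of 0.62 ± 0.39 (adjusted p = 0.240) and -0.34 ± 0.39 (adjusted p = 0.530), and set-adjusted values of 0.15 and -0.05.

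The reads of the 2 partners did not keep a fixed ratio. ABCG8 had 1.17, 1.45, 2.13, 1.08 and 1.90 reads per ABCG5 read in control 1 to 5, and 1.07, 1.98 and 1.36 in metformin 1, 3 and 4. In the low set the ratio was 0.534 and 0.825, and in the high set it ran from 0.375 to 0.926. All 7 libraries of the low and high sets were below all 8 of the middle set. The mean log2 ratio was 0.58 ± 0.43 in controls (SD, n = 5) and -0.28 ± 0.68 with metformin (SD, n = 10), a difference of -0.86 with p = 0.026 in a two-sided exact permutation test over 3003 splits. In the middle set alone the difference was -0.07 with exact p = 0.75, where the smallest p is 0.0179. Without control 3 or control 5 the difference over all libraries was -0.73 (exact p = 0.0699) and -0.77 (exact p = 0.0609). ABCG5 overlaps DYNC2LI1 and a lncRNA in the RefSeq table.

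**Figure D4:**
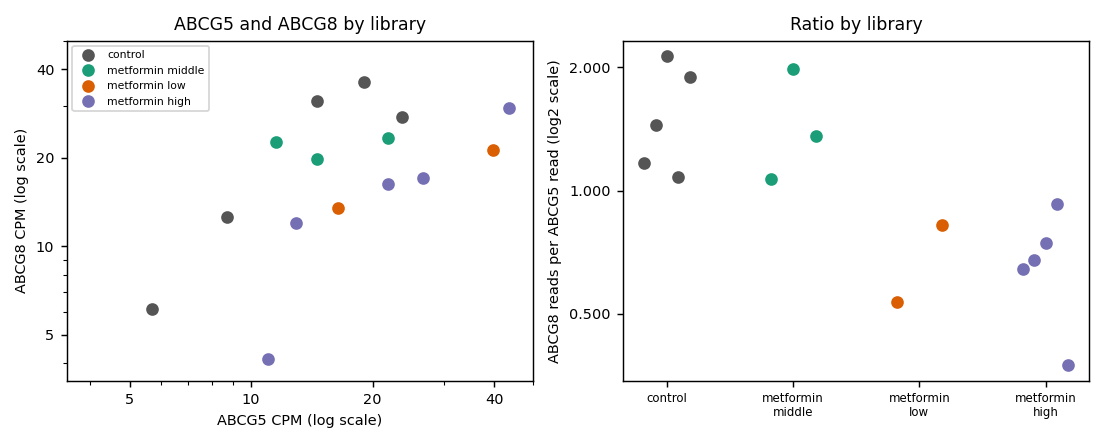
The left panel plots ABCG8 against ABCG5 CPM per library on log axes, and the right panel the number of ABCG8 reads per ABCG5 read by set on a log2 axis. The 8 libraries of the middle set lie between 1.07 and 2.13, and the other 7 between 0.375 and 0.926.

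ABCG1, which passes cholesterol to HDL in mammalian macrophages, was near the detection limit, with 1 to 10 reads in a control and 0 to 82 in a metformin library. On the log2 scale its difference was 1.95 ± 0.76 (adjusted p = 0.0762), against 1.39 ± 0.87 with the set term. ABCG4, a related sterol transporter, had 1.38 ± 0.733 CPM in controls and 1.36 ± 0.902 with metformin, and the sign of its fold change depended on the scaling (-0.02 with TMM, 0.01 with RLE factors).

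ABCD3, the peroxisomal membrane protein that admits branched-chain acyl-CoA and bile acid precursors, had 42.3, 33.0, 20.6, 28.5 and 34.3 CPM in control 1 to 5. The levels in metformin 1, 3 and 4 were 36.3, 26.6 and 34.3 CPM, metformin 2 and 5 had 295 and 247, and metformin 6 to 10 had 132, 206, 211, 144 and 126. The first 3 lay within the control range and the other 7 were above every control. On the log2 scale the difference was 2.20 ± 0.55 (adjusted p = 0.0260) in the 15 libraries together, against 0.03 ± 0.24 (adjusted p = 0.984) set-adjusted. It lost the call without control 2, 3, 4 or 5, with adjusted p = 0.0556 to 0.0720.

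ABCD2, which imports very long chain acyl-CoA into peroxisomes, did not share this pattern. It had 44.3 ± 15.4 CPM in controls and 32.7 ± 6.41 with metformin, with log2 fold changes of -0.44 (adjusted p = 0.133) and, with the set term, -0.58 (adjusted p = 0.427). ABCD4, which works with LMBRD1 in the release of cobalamin from lysosomes, had a mean of 76.1 CPM in controls and 49.9 with metformin. Metformin 1, 3 and 4 were at 74.0 to 81.3 CPM, within the control range of 64.5 to 96.0, and the other 7 libraries at 29.1 to 55.7, below it. This gave log2 fold changes of -0.61 (adjusted p = 0.0913) and, set-adjusted, 0.01.

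ABCE1, the ATPase that splits ribosomes after termination, had 25.3, 18.2, 23.8, 20 and 19.3 CPM in controls. Of the treated libraries, metformin 1, 3 and 4 had 37.6, 18 and 25.9 CPM, metformin 2 and 5 had 76.7 and 70.4, and metformin 6 to 10 had 33.6, 59.3, 61.6, 44.0 and 51.5. Metformin 3 was below all controls and the other 9 above all of them. On the log2 scale the difference was 1.17 ± 0.30 (adjusted p = 0.0278), against 0.35 ± 0.23 (adjusted p = 0.603) with the set term. The call was lost without control 2, 3, 4 or 5, with adjusted p = 0.0524 to 0.0755. ABCF2 and ABCF3, related ATPases of translation, had log2 fold changes of 0.02 ± 0.18 and -0.41 ± 0.18 (adjusted p = 0.947 and 0.111). ABCF2 had the smallest spread among controls, 7.12% of its mean of 20.5 CPM.

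Of the mitochondrial members of subfamily B, ABCB6 and ABCB8 were called lower in the low and high sets than in the middle set, and ABCB10 was not called. ABCB8, linked in mammals to a mitochondrial potassium channel, had 98.3 ± 14.5 CPM for controls, 71.5 to 154 in metformin 1, 3 and 4, 12.7 to 20.5 in the low set and 35.2 to 71.6 in the high set. ABCB10, which supports haem synthesis, had 10.8 ± 2.85 CPM in controls and 13.7 ± 3.54 with metformin. ABCB6, a porphyrin transporter, had 16.4 ± 4.11 CPM for controls, 16.2 to 26.6 in metformin 1, 3 and 4, 4.73 to 5.52 in the low set and 4.03 to 11.9 in the high set. Their log2 fold changes were -0.78 for ABCB8 (adjusted p = 0.171), 0.35 for ABCB10 (adjusted p = 0.257) and -0.55 for ABCB6 (adjusted p = 0.292). Set-adjusted they were 0.04, 0.02 and 0.31.

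ABCB9, a lysosomal peptide transporter, had 10.9 ± 2.17 CPM in controls and 15.6 ± 2.91 with metformin, with 8 of 10 libraries above all controls and log2 fold changes of 0.51 ± 0.18 (adjusted p = 0.0566) and, with the set term, 0.46 ± 0.21 (adjusted p = 0.407). It passed the threshold with RLE factors (adjusted p = 0.0461), the CPM filter (adjusted p = 0.0497) and DESeq2 (adjusted p = 0.0208). ABCB5, a relative of ABCB1, had 0 to 23 reads in a library and was not tested.

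Subfamily C had no call among its 10 members in the main fit. ABCC3 and ABCC4 export conjugates across the basolateral membrane. ABCC3 had 10.3, 8.51, 13.7, 12.1 and 11.8 CPM in controls and 5.53 to 11.5 with metformin, of which 5 libraries were below all controls, with log2 fold changes of -0.41 (adjusted p = 0.150) and, with the set term, -0.54 (adjusted p = 0.450). ABCC4, which also exports cyclic nucleotides, had 2.49, 2.37, 2.37, 3.74 and 3.71 CPM in controls and 1.73, 1.30 and 2.12 in metformin 1, 3 and 4, but 9.84 and 10.2 in the low set and 2.89 to 8.62 in the high set. Its log2 fold change was 0.92 ± 0.48 (adjusted p = 0.163) in the 15 libraries together, against -0.76 ± 0.36 (adjusted p = 0.429) set-adjusted. ABCC1, an exporter of glutathione conjugates, had 3.10 ± 0.360 and 4.44 ± 1.62 CPM, with log2 fold changes of 0.52 and -0.03.

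ABCC5, an exporter of cyclic nucleotides, and ABCC6, whose loss causes ectopic calcification in human, had log2 fold changes of -0.14 ± 0.22 and -0.21 ± 0.18. ABCC10 had -0.53 (adjusted p = 0.223) and ABCC13, a pseudogene in human, -0.58 (adjusted p = 0.103), with 0.11 and -0.31 set-adjusted. The sulfonylurea receptor subunits ABCC8 and ABCC9, which regulate potassium channels rather than transport a substrate, had -0.11 ± 0.39 and 1.07 ± 0.59. ABCC9 was 0.484 to 2.26 CPM in controls and 0.508 to 9.53 with metformin, and metformin 10 was the highest library. The same library was also highest for KCNJ8, a channel partner of ABCC9, at 17.1 CPM against 6.27 to 14.8 in controls, and for the sum of 7 stellate cell and fibroblast markers, at 562 CPM against 180 to 392 in controls. All 7 of these markers were detected, with 1 higher and 0 lower over all libraries, beside 12.5% and 5.73% of all genes. Their part in the ABCC9 value was not tested. KCNJ11, the other channel subunit, was at 0 CPM in 13 libraries and was not tested.

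The set terms of the covariate fit compare metformin 2 and 5, and metformin 6 to 10, with metformin 1, 3 and 4. Against the middle set 9 of 37 members were higher and 8 lower in the low set, beside 19.7% of all genes higher and 24% lower. In the high set 7 were higher and 7 lower, beside 23.5% and 21.3%. The members' counts are near these shares and are no result about the family. The low set had 4.09 ± 0.31 for ABCA1, 3.06 ± 0.30 for ABCD3, 2.53 ± 0.43 for ABCC4 and -2.61 ± 0.40 for ABCB8 on the log2 scale. The high set had 3.44 ± 0.28, 2.34 ± 0.26, 1.80 ± 0.38 and -1.11 ± 0.28 for the same members. ABCB1LA was called in the high set (2.04 ± 0.47, adjusted p = 0.00203) and not in the low set (0.25 ± 0.53, adjusted p = 0.730), a difference between the sets that was not itself tested. ABCB11 was not called in either set.

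**Figure D5:**
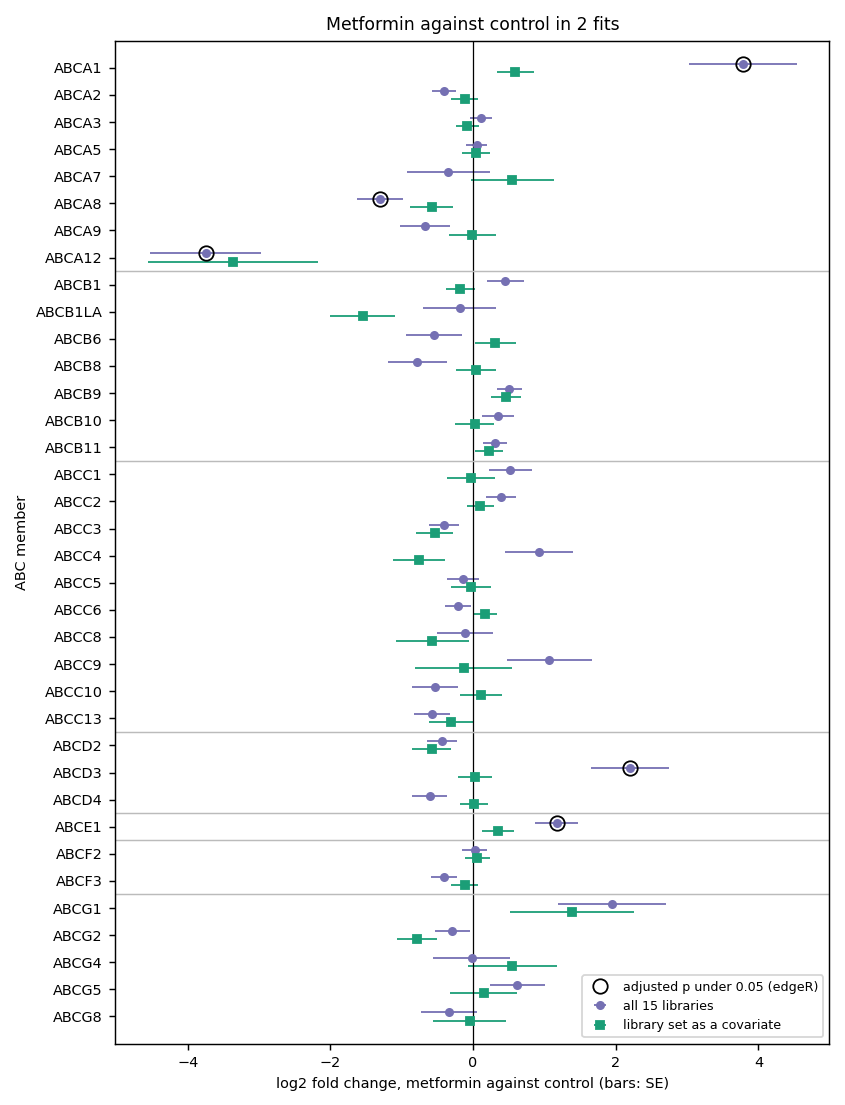
Circles are log2 fold changes of 36 members over all 15 libraries and squares those with the library set as a covariate, bars are SE, and rings mark members with an adjusted p under 0.05. The 5 ringed members keep their sign in both fits, and ABCA1 moves from 3.78 to 0.59 and ABCD3 from 2.20 to 0.03.

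Genes that work with these pumps were read from lists, against 12.5% of all genes called higher and 5.73% lower. Of 19 tested transcription regulators of ABC genes 4 were higher and 1 lower. ESR1, the oestrogen receptor, had 1.54 (0.55 set-adjusted), NR5A2, a nuclear receptor of bile acid metabolism, had 1.36 (0.43), and NR0B2, a repressor of bile acid synthesis, had -0.98 (-0.57). Of 15 genes of sterol and lipid export 4 were higher and 2 lower, with APOA4 at -1.97 (-1.37) and MTTP, which loads lipid onto apolipoprotein B, at 3.22 (0.07). Of 18 genes of bile and anion transport 2 were higher and 3 lower, with the organic anion carriers SLCO2B1 at -1.58 (-0.84) and SLCO4A1 at -0.77 (-0.29), and EZR, a linker of membrane to actin, at 1.5 (0.71). Values in parentheses are set-adjusted log2 fold changes, none of which passed for a listed gene.

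Of 25 peroxisomal genes 5 were higher and 1 lower, with PEX11A at -0.72 (-0.85) and PEX7 at 1.74 (0.37). The list's median log2 fold change was 0.29 and -0.02 set-adjusted, beside 2.20 and 0.03 for ABCD3. Of 28 genes of haem and iron-sulfur metabolism 2 were higher and 3 lower, with UROD at -0.72 (-0.45), NFU1 at -0.67 (-0.35) and ALAD at 1.16 (0.33). NFU1 was below all controls in 10 of 10 metformin libraries, as were 1.05% of all genes tested. Of 17 translation genes 4 were higher and 1 lower, with EIF5B at 0.96 (0.27), EIF3A at 1.72 (0.09) and ETF1 at 1.48 (-0.0015). Of 6 genes of cobalamin handling and use 1 was higher, MTR, the methionine synthase, at 1.39 (0.71).

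Members varied among control libraries about as much as other genes. The median standard deviation among the 5 controls was 24.6% of the mean over the 37 members and 26.2% over all tested genes with reads in controls. By subfamily the medians were 24.5% in A, 20.5% in B, 26.5% in C, 25% in D, 10% in F and 53.2% in G. Comparison of levels between members was not made, because no transcript lengths of the assembly used for counting were at hand.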

How the data were processed

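Sequencing of stranded mRNA libraries gave 15 liver libraries. The values are raw counts of reads per gene, as the authors deposited them. Per the submitters' processing notes the tools included STAR 2.7.11b, Trim Galore 0.6.4, HTSeq 0.12.3 and FastQC 0.12.0 with the build GRCg6a, also called galGal6. No strand setting is stated there. The 5 closing rows, which include the reads in no gene (14.6% to 55.1%), stayed out of library sizes. All 40 members matched a RefSeq gene table of GRCg7b, which served for names, neighbours and overlaps.

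All genes were fitted with edgeR 4.0.16 in R 4.3.3, by its quasi-likelihood test with TMM factors, its own expression filter and Benjamini-Hochberg adjustment over 14432 genes, and all adjusted p-values are edgeR's unless DESeq2 is named. SE is the log2 fold change divided by the square root of the F statistic. Library sets were divided at gaps above 5 percentage points in the share of reads in no gene. Members, lists, sets and tests were chosen with earlier results of these data known. The rule for naming let every member be named and asked for library values of called members and of 12 others, of which ABCB4 has no row; ABCB1LA and ABCB9 were singled out after their values were seen. Some genes, 1 member among them, are not reported here one by one, though counts and medians include them. Partner lists give up to 3 called genes with the smallest p. A ranking of members by level per length could not be made. The set terms, the ABCG8 to ABCG5 ratio and the subfamily sums without ABCA8 or ABCD3 were added after seeing the data.

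The alternatives were DESeq2 1.42.0, RLE factors, no filter, a stricter filter (CPM of 1 or more in 5 or more libraries), a term for the set, the middle set alone, the replicate number as a block, and omission of single libraries. The edgeR fit was tested on simulated data with 200 changed genes. The simulated counts had the spread within sets and no difference by set. That run therefore cannot show how the main fit behaves where set and treatment are mixed. Libraries of the same treatment group were compared in pairs for repeated deposits over 2000 genes. Chi-square divided by its degrees of freedom was at least 90.6 for any such pair.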

Additional observations from a re-analysis of the deposited data

Results flagged for a closer look

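Among 72 groups checked, 36 members in each treatment group on the log2 CPM scale, 4 held a library whose gap to its neighbour was wide for the range of its group. Chance alone gives about 1 in 20 groups. Control 4 was the lowest control for ABCA7 (2.69 CPM, next 5.22) and ABCC13 (19.8 CPM, next 48.4). Control 1 was the lowest for ABCF3 (69.5 CPM, next 93.8). Metformin 10 was the lowest metformin library for ABCG8 (4.13 CPM, next 12.0).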

How the results depend on the processing

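Of 14432 genes tested, 1805 were higher and 827 lower over all libraries. With the set as a covariate the counts were 4 and 1, with 0 and 0 members, in the middle set 0 and 1, with 0 and 0 members, and with the replicate number as a block 0 and 0, with 0 and 0 members. With the block 3 members had an unadjusted p under 0.05, beside 11.8% of genes. Same-numbered libraries did not deviate together (correlations from -0.04 to 0.0687), so the block is no pairing. Metformin 6 to 10 have no control of the same number, so the block fit reads treatment from metformin 1 to 5 alone. DESeq2 called 3125 and 1151 genes and 6 members higher. Leaving out single libraries gave 0 to 3011 genes higher and 0 to 2293 lower, and 0 to 6 members higher and 0 to 8 lower, with the top counts without metformin 3 and counts of 0 and 0 without control 5. Without control 2 the counts were 2 genes higher and 4 lower, with 0 and 0 members. Without control 3 they were 233 and 182 genes, with 1 and 1 members. Without control 4 they were 16 and 39 genes, with 0 and 1 members. The ABCG8 to ABCG5 difference was -1 to -0.73 without single libraries and -0.07 in the middle set.

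Log2 fold changes that changed sign were, with the set as a covariate and in the middle set, ABCA3 -0.08 and -0.06, ABCA7 0.55 and 0.57, ABCB1 -0.18 and -0.17, ABCB6 0.31 and 0.33, ABCB8 0.04 and 0.06, ABCC1 -0.03 and -0.01, ABCC4 -0.76 and -0.75, ABCC6 0.17 and 0.19, ABCC9 -0.13 and -0.11, ABCC10 0.11 and 0.13, ABCD4 0.01 and 0.03, and ABCG4 0.55 and 0.57. ABCA9 did so in the middle set alone (0.02). ABCG4 had 0.01 with RLE factors, 0.06 with the block and 0.01 with DESeq2, and ABCG8 0.05 with the block. Without single libraries ABCA5 ran from -0.03 to 0.14, ABCB1LA from -0.44 to 0.09, ABCC5 from -0.29 to 0.03, ABCF2 from -0.03 to 0.12 and ABCG4 from -0.23 to 0.32. None of these members was called over all libraries, and the cause was not tested. The 5 called members held their sign in all alternatives. The high set has the fewest gene reads, which limits precision for members of few reads such as ABCG1, ABCG4 and ABCC9.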

Other observations

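Another 3 ABC genes carry symbols outside the naming rule and were read from a fixed list. TAP1 and TAP2, which feed peptides to MHC class I, had 27.0 to 62.4 and 117 to 189 CPM in controls. TAP2 had 119 to 157 CPM in metformin 1, 3 and 4, 36.4 to 37.2 in the low set and 38.0 to 67.6 in the high set, so the last 7 libraries were below every control. The summed heterophil and thrombocyte markers, 6 of 8 in the table, were 52.7 to 169 CPM for controls, 36.6 to 68.2 in metformin 1, 3 and 4, 19 to 21.2 in the low set and 9.35 to 37.3 in the high set. The 7 bile duct markers, CFTR among them, summed to 85.4 to 133 CPM in controls, 61 to 113, 54.9 to 55.4 and 64.1 to 90.7. The 8 lymphocyte markers summed to 47.7 to 82.8 CPM in controls, 64 to 81.1, 50.4 to 63.4 and 40.5 to 71.4. The lymphocyte ranges overlap, and so did the macrophage sums given above. Heterophil and thrombocyte sums of the low and high sets were below every control, as were the bile duct sums of the low set. In the heterophil and thrombocyte, the bile duct and the lymphocyte list 0 markers were called higher and 1 lower each. Of all genes 12.5% were called higher and 5.73% lower. The part of any list in the TAP2 values was not tested. TAP1 had 31.7 to 46.0, 14.1 to 14.2 and 20.9 to 41.4 CPM in the same sets. CFTR, the chloride channel of duct epithelium, was at 0.268 to 1.56 CPM in all libraries. None of the 3 was called by edgeR over all libraries, and 1 had an unadjusted p under 0.05.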
